A study of Mus musculus with 47 samples.

Results

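Leukocyte integrins and migration genes were followed in liver, lung and brain of mouse embryos that carry point mutations in Daxx, a histone chaperone that binds the histone variant H3.3 and the chromatin remodeler Atrx. The 9 genes were taken by name from the count table, which lists 20456 genes, and all 9 passed the filter on low counts together with 16892 genes in all. They are Itgam, Itgal, Itgax, Itgb2, Itga4, Selplg, Adam8, Fpr1 and Fpr2. Each library is bulk RNA of 1 organ of 1 C57BL/6 embryo at E18.5, late gestation. The embryos were homozygous for Daxx S226A, a serine to alanine exchange that disrupts the binding of H3.3, or homozygous for Daxx Y130A, a tyrosine to alanine exchange that disrupts the binding of Atrx, or they were wild-type littermates of either mutant. Both alleles are germline knock-ins made with CRISPR/Cas9 in C57BL/6N zygotes, with founders crossed back to C57BL/6J, that also carry silent changes, and every cell of a mutant embryo has them. The 47 libraries form 12 groups, 1 for each tissue, genotype and set of litters, each of 4 libraries, except that wild-type lung is represented by 3 in the Y130A litters. Every mutant embryo has a wild-type littermate, and 8 litters (4 per mutant) were used.

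Leukocytes leave the blood in steps. They first roll on the vessel wall, which selectins and their ligands mediate, then respond to chemoattractants, and then arrest and crawl with activated integrins. An integrin is a pair of 1 alpha and 1 beta subunit. Itgb2 encodes the beta 2 subunit (CD18) that all leukocyte integrins of this class share. Itgam (CD11b), Itgal (CD11a) and Itgax (CD11c) encode its alpha partners in Mac-1, LFA-1 and the complement receptor CR4. Mac-1 is best known on neutrophils, monocytes and macrophages, LFA-1 on nearly all leukocytes, and CD11c on dendritic cells and some macrophages. Itga4 encodes the alpha 4 subunit, which pairs with Itgb1 or Itgb7, binds Vcam1 and is abundant on blood progenitors. Selplg encodes PSGL-1, the main ligand of P-selectin. Adam8 is a membrane metalloprotease of myeloid cells, and Fpr1 and Fpr2 are receptors for formylated peptides that guide neutrophils. The fetal liver is a main site of blood formation before birth.

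Among these 9 genes, Itgam, Itgal, Itgax and Adam8 lie on chromosome 7 and Fpr1 and Fpr2 on chromosome 17. In GRCm38.p6, Itgam spans chr7:128062640-128118491 and Itgax chr7:128129547-128150657, both on the plus strand and 11.1 kb apart. Fpr1 (chr17:17876471-17883940, minus strand) and Fpr2 (chr17:17887824-17893952, plus strand) are 3.9 kb apart with no counted gene between them. The others are Itgal at chr7:127296260-127335138, Adam8 at chr7:139978932-139992562, Itgb2 at chr10:77530252-77565708, Itga4 at chr2:79255426-79333123 and Selplg at chr5:113818536-113832644. All 9 are annotated as protein coding. Of the exon bases of Itgam, 68.7% (3450 of 5024) are shared on the same strand with the read-through gene Gm49368, so that reads there can be left out as ambiguous, and the level of Itgam is therefore uncertain. Gm49368 had a read in 5 of 47 libraries, with at most 12 reads. Itga4 shares 8.0% of its exon bases with the antisense gene Cerkl, Fpr2 3.7% with Fpr3 on the same strand, and Adam8 1.0% with the antisense gene Gm16201.

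Both pairs of neighbours are shown by their promoters, because in S226A liver 1 gene of each pair rose and the other did not pass the test. RefSeq sequences of GRCm38.p6 held a promoter window of 300 bases (250 before the start of the gene and 50 after it) for 6 of the 9 genes. Capitals mark matches to TTNCNNAA, letters that C/EBP factors of myeloid cells bind, and to TGTGGT, letters that RUNX factors bind, on either strand. No 2 of the marked matches overlap. The windows are chr7:128062390-128062689 (plus strand) for Itgam, chr7:128129300-128129599 (plus strand) for Itgax, chr17:17883890-17884189 (minus strand) for Fpr1 and chr17:17887574-17887873 (plus strand) for Fpr2, each written 5′ to 3′.
Itgam: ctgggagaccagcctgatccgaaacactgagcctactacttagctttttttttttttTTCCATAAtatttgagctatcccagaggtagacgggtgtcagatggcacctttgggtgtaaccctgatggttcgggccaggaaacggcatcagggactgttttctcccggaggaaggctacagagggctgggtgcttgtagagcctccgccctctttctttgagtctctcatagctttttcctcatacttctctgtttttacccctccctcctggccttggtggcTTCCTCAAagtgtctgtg
Itgax: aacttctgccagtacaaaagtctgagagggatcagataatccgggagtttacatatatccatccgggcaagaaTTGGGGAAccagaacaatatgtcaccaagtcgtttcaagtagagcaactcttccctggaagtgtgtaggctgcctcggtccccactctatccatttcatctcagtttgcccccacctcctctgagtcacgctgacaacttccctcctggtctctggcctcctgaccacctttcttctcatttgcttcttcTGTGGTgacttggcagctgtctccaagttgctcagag
Fpr1: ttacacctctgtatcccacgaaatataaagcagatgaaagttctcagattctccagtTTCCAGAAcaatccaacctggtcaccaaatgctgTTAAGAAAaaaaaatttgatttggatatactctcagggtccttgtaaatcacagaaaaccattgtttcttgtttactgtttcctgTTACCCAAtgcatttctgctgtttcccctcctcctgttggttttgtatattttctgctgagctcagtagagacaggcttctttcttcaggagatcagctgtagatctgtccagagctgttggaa
Fpr2: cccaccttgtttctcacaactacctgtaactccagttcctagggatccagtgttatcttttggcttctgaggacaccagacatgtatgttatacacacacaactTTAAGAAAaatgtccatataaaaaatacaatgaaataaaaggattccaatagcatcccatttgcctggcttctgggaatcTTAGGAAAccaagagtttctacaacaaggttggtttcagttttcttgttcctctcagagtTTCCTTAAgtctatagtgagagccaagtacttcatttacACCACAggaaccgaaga
TTNCNNAA was matched 2 times in the window of Itgam, 1 time in Itgax, 3 times in Fpr1 and 3 times in Fpr2, and it is also found in 40.68% of all 32851 promoter windows. TGTGGT was matched 1 time in Itgax and 1 time in Fpr2 and is found in 16.76% of all windows. GAGGAAGT, letters of the ETS factor PU.1, was found in none of the 6 windows and in 3.2% of all windows. These matches are a description of the letters and show no binding.

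Libraries of the S226A litters held 15722147 to 26190403 counts in total and those of the Y130A litters 36351738 to 54885020, so that low genes were measured with more reads in the Y130A set. Values below are counts normalized by TMM to a common library size, and the tests are edgeR quasi-likelihood tests over all genes, in which a gene was called at an adjusted p below 0.05. The mutations exchange 1 residue, so the level of Daxx does not check the genotype. The RNA of Daxx did not pass the test in any of the 6 comparisons of mutant and wild-type. Its normalized counts were between 803 and 1504 in the S226A litters and between 862 and 1365 in the Y130A litters. For Daxx protein, the study reports less in S226A and more in Y130A than in wild-type, in embryonic fibroblasts and E18.5 lung and clearest in the fibroblasts. Liver markers (Alb, Afp, Apoa1, Ttr), lung markers (Sftpc, Sftpb, Nkx2-1, Ager) and brain markers (Tubb3, Stmn2, Neurod6, Sox11) each had a summed count in their own tissue above that in every library of the other tissues. Transcripts of squamous epithelium stood out in 2 livers, 1 wild-type liver of the S226A litters (replicate 2) and 1 Y130A liver (replicate 1), and results in liver are given without them where that changes a call.

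In wild-type embryos, the mean level of all 9 genes was highest in liver and lowest in brain. Itgb2 had 2566 ± 268 normalized counts in liver (SD, n = 8), 708 ± 143 in lung (n = 7) and 25.4 ± 5.28 in brain (n = 8). The liver and the brain did not overlap for any of the 9 genes. How many of all genes show no such overlap was not counted. All 9 passed the test between liver and brain and between lung and brain, where 87.3% and 84% of all genes passed in either direction. Of all 16892 genes, 7064 were higher in liver than in brain, and 6968 were higher in lung than in brain. Between liver and lung 8 of 9 passed, all higher in liver. There 80.1% of all genes passed in either direction, and 6379 of 16892 were higher in liver. The exception was Itgax, with 65.9 ± 44.7 in liver and 47.1 ± 21 in lung (log2 difference 0.59, SE 0.40, adjusted p = 0.17).

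The steps between tissues were unequal. Itgam was 15.7-fold higher in liver than in lung (393 ± 50.8 and 25.1 ± 9.88) but 2.25-fold higher in lung than in brain (11.1 ± 3.94). Itgal, the partner of Itgb2 in LFA-1, was 4.96-fold higher in liver than in lung and 39.3-fold higher in lung than in brain, with 1606 ± 287, 355 ± 153 and 8.39 ± 3.60 normalized counts. Adam8 had the smallest fold between liver and brain (3.99-fold), from 570.0 ± 91.0 in liver over 300.2 ± 49.7 in lung to 143 ± 33.2 in brain. Fpr1 and Fpr2 were close to absent in wild-type brain, at 1.75 ± 2.47 and 1.79 ± 1.31, where no library had more than 7 reads of either.

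Per kilobase of exon, Itgb2 had the highest level in wild-type liver, with 28.4 ± 2.98 CPM per kb (SD, n = 8, CPM being the count scaled to the TMM-normalized library size), followed by Itga4 with 23.2 ± 1.35. Fpr1, Itgal and Fpr2 had 9.63 ± 3.53, 8.27 ± 1.48 and 7.17 ± 1.43, which differ by less than their spread. Selplg had 5.43 ± 0.909 and Adam8 4.16 ± 0.664 CPM per kb. Itgam had 2.65 ± 0.342, or 8.45 ± 1.09 when only its unshared exon bases are counted as its length. Itgax had the lowest level, 0.465 ± 0.315.

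**Figure D1:**
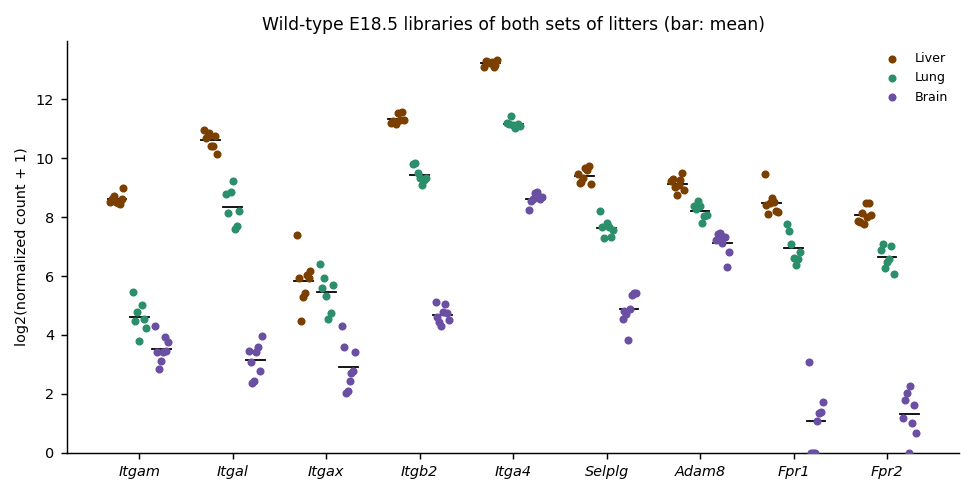
Each point is 1 wild-type library, and the vertical axis gives log2(normalized count + 1) for each of the 9 genes in liver (brown, 8 libraries), lung (green, 7) and brain (purple, 8), with a bar at the mean. Liver lies above brain for every gene, Itgax overlaps between liver and lung, and Fpr1 and Fpr2 reach 0 in brain.

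The wild-type embryos of both sets of litters were also compared, since a difference there involves no mutation. In liver 0 of the 9 genes differed by edgeR, where 13.1% of all genes did, and DESeq2 also called 0. An unadjusted p below 0.05 was found there for 0 of the 9, and for 4726 of all 16892 genes. In lung, Itgal was higher in the S226A litters (log2 difference 0.95, SE 0.20, adjusted p = 0.00074) and so was Itgb2 (0.41, SE 0.13, adjusted p = 0.022), where 20.1% of all genes differed. In brain, Selplg was lower in the S226A litters (log2 difference -0.80, SE 0.23, adjusted p = 0.031), where 5.98% of all genes differed. Fitting only the 2 groups compared left none of these 3 calls. The sets also differ in sequencing depth, and litter set and depth cannot be told apart.

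In S226A liver, 5 of the 9 genes rose and 0 fell against wild-type littermates, where 6.14% of all genes rose, 5.54% fell and 11.7% changed in either direction. These were the integrin subunits Itgam and Itgb2, the selectin ligand Selplg, the protease Adam8 and the receptor Fpr2, by 1.81-fold to 2.72-fold. The other alpha subunits (Itgal, Itgax, Itga4) and Fpr1 did not pass the test. The median log2 fold change over the 9 genes was 0.85, against -0.01 over all genes tested. All 5 calls stayed in each of the 8 fits that left out 1 library, in DESeq2, with litter as a block and without the livers that hold squamous transcripts. Under the study's stringent criteria (adjusted p below 0.01, log2 fold change beyond 1 and SE below 1) 4 were called, without Selplg.

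Itgb2, the shared beta 2 subunit, had 2376, 2470.5, 2396 and 2308 normalized counts in the wild-type livers and 5646, 4857, 5641 and 5194 in the S226A livers. The groups lay far apart, and each S226A liver exceeded the highest wild-type liver by more than the range within either group. The means were 2387 ± 67.0 and 5335 ± 382 (SD, n = 4 each), a 2.23-fold difference (log2 1.16, SE 0.12, adjusted p = 1.94e-09).

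Itgam, whose product pairs with that of Itgb2, had 363, 396, 421 and 362 normalized counts in the wild-type livers. The S226A livers had 923, 869.6, 872 and 718, all above every wild-type liver. The change was 2.19-fold (log2 1.13, SE 0.21, adjusted p = 0.00011), close to that of Itgb2.

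Itgal had 2009, 1639, 1727 and 1839 normalized counts in the wild-type livers and 2382, 2238, 2202 and 2204 in the S226A livers. The groups did not overlap, but the difference was small (1.25-fold, log2 0.32, SE 0.18) and the adjusted p was 0.27. In the fit of only the 8 libraries compared the adjusted p was 0.027. Itgax had 169, 60.2, 21.2 and 38.0 in the wild-type livers and 107, 111, 78.6 and 35.3 in the S226A livers. These overlap fully, and 1 wild-type liver (replicate 1) had the highest value (log2 0.20, SE 0.54, adjusted p = 0.89). The log2 fold change of Itgax was 1.06 without that library and -0.10 without wild-type replicate 3, and it was not called in either fit. The library with the high Itgax also had the highest Fpr1 of all livers, 702.

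Itga4, which does not pair with Itgb2, had 8850.1, 10105, 9916 and 9549.7 normalized counts in the wild-type livers. The S226A livers had 8003, 9698, 8547 and 6921, and in all 4 litters the S226A liver was below its wild-type littermate. The log2 fold change was -0.21 (SE 0.10, adjusted p = 0.17), so that this difference did not pass the test, and the groups overlap.

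Selplg had 706, 577, 579.8 and 639 normalized counts in the wild-type livers and 1074, 1197, 1150.2 and 1100.0 in the S226A livers. All S226A livers were above all wild-type livers (1.81-fold, log2 0.85, SE 0.18, adjusted p = 0.0006). Adam8 was at 604, 625, 525 and 429 in wild-type and at 1269, 1184, 1238 and 1269 in S226A. Its spread among the S226A livers was narrow (SD 40.1), and the change was 2.27-fold (log2 1.18, SE 0.17, adjusted p = 1.89e-06).

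Fpr2, a receptor for formylated peptides and for annexin A1, had 234, 229, 280.3 and 216 normalized counts in the wild-type livers and 508, 790.4, 662 and 649 in the S226A livers. The groups did not overlap, and this was the highest fold change of the 9 genes in liver (2.72-fold, log2 1.45, SE 0.24, adjusted p = 2.58e-05). Its neighbour Fpr1 had 702, 342, 274 and 355 in wild-type and 494, 579, 463 and 588 in S226A. These overlap through the 1 wild-type liver with 702 (log2 0.34, SE 0.34, adjusted p = 0.60). Without that library the log2 fold change of Fpr1 was 0.71, the highest of its alternatives, and the adjusted p stayed above 0.05.

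**Figure D2:**
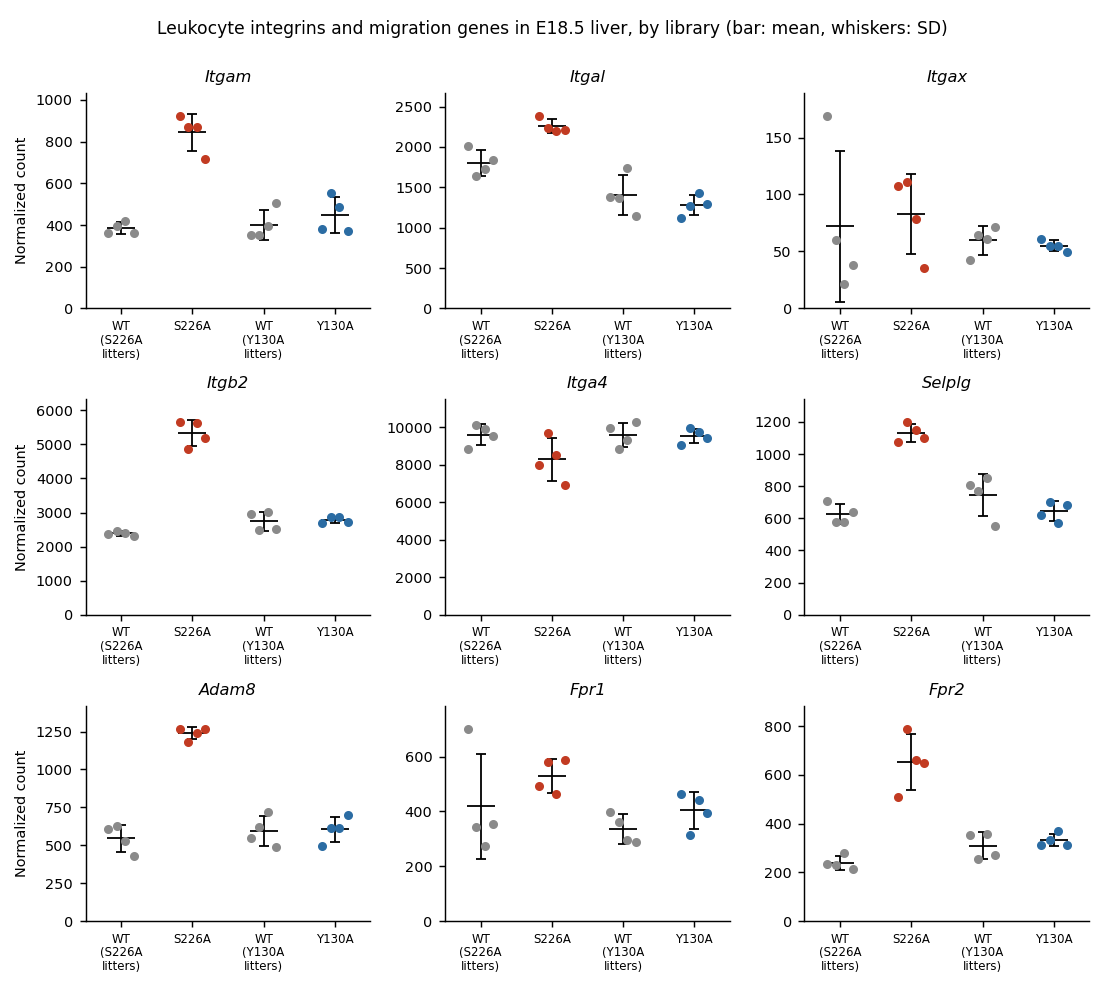
Each panel shows 1 gene in E18.5 liver, with normalized counts on a vertical axis that starts at 0, a point for each library, and the mean with the SD. In Itgam, Itgb2, Selplg, Adam8 and Fpr2 the 4 S226A livers (red) lie above the 12 other livers, while the Y130A livers (blue) overlap their wild-type littermates.

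Transcripts of several leukocyte types moved with these 5 genes in S226A liver. Of the neutrophil markers 10 of 10 rose, and their summed normalized count was 84679.7 to 104368 in the wild-type and 243209 to 266177 in the S226A livers. Of the granulocyte precursor markers 6 of 6 rose (14919.9 to 17123 against 36651 to 49509.6), and of the monocyte markers 2 of 5 (3511 to 4068 against 7799.7 to 8544). Of the macrophage markers 10 of 11 fell (24868 to 29017 against 6879 to 10178), and Vsig4 had no read in any S226A liver. Of the dendritic cell markers 4 of 5 tested fell (1663 to 2143 against 912 to 1329.7), and of the B lineage markers 4 of 7 fell (4133 to 4848 against 1565 to 3525). Their part in the result was not tested, and in bulk RNA fewer cells of a type and less RNA per cell cannot be told apart.

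Ptprc (CD45), which nearly all leukocytes make, itself rose in S226A liver (3144 ± 127 against 5169 ± 419 normalized counts, log2 0.72, SE 0.14, adjusted p = 0.0004). Relative to Ptprc, the mean log2 ratio was higher in S226A than in wild-type liver by 0.71 for Fpr2, 0.48 for Adam8, 0.44 for Itgb2 and 0.41 for Itgam, and the libraries did not overlap for Adam8, Itgb2 and Itgam. It was higher by 0.14 for Selplg, where the libraries overlap. For Itgal and Itga4 the difference of the log2 ratio to Ptprc was -0.39 and -0.94, without overlap.

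In S226A lung, Itgam rose, while Itgb2 and Fpr2 fell against wild-type littermates, where 0.852% of all genes rose, 1.02% fell and 1.88% changed in either direction. The other 6 genes did not pass the test, and the median log2 fold change of the 9 genes was -0.46, against 0.00 over all genes.

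Itgam had 43.0, 21.3, 26.6 and 13 normalized counts in the wild-type lungs and 70.7, 70.2, 82.6 and 76.9 in the S226A lungs. Every S226A lung was above every wild-type lung, and the S226A lungs were close together (75.1 ± 5.84 against 26 ± 12.7, SD, n = 4 each). The change was 2.86-fold (log2 1.52, SE 0.25, adjusted p = 0.0002) and rested on 8 to 31 reads per wild-type lung and 51 to 63 per S226A lung. Gm49368, which shares exons with Itgam, had 9 reads over the 4 wild-type lungs and 0 over the 4 S226A lungs.

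Itgb2 had 888, 915, 718 and 646 normalized counts in the wild-type lungs and 641, 629, 487 and 525 in the S226A lungs. The groups touch without overlap, and the change was smaller than in liver and in the other direction (log2 -0.47, SE 0.12, adjusted p = 0.035). Fpr2 had 118, 135, 77.0 and 89.0 in wild-type and 62.1, 53.7, 60.6 and 41.5 in S226A. The groups did not overlap, and the S226A lungs were lower in all 4 litters (log2 -0.95, SE 0.26, adjusted p = 0.044). The call of Fpr2 was lost with litter as a block (adjusted p = 0.0504), with no filter on low counts and in 6 of 8 fits without 1 library, and that of Itgb2 in 3 of 8, without wild-type replicate 1 or S226A replicate 3 or 4. With litter as a block Itgb2 and Itgam were called (adjusted p = 0.003 and 0.0026).

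Selplg had 298, 201, 157 and 220.2 normalized counts in the wild-type lungs and 144, 157, 164 and 96.5 in the S226A lungs. The groups overlap slightly and the test was missed (log2 -0.65, SE 0.19, adjusted p = 0.061), but DESeq2 called it (adjusted p = 0.019). Adam8 was at 331, 312, 370.1 and 329 in wild-type and at 416, 399, 458 and 336 in S226A, higher in 4 of 4 litters without passing the test (log2 0.26, SE 0.17, adjusted p = 0.47). Itgal (448 ± 134 and 326 ± 67.8), Itgax (57.6 ± 19.2 and 31.4 ± 15.1) and Fpr1 (159 ± 53.5 and 125 ± 63.7) were lower in S226A in all 4 litters, with adjusted p-values of 0.21, 0.46 and 0.70. Itga4 had nearly the same mean in both groups, 2405 ± 247 and 2385 ± 219.9. In the fit of only the 8 lungs compared, 0 of the 9 genes were called, and the adjusted p of Itgam was 0.36.

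**Figure D3:**
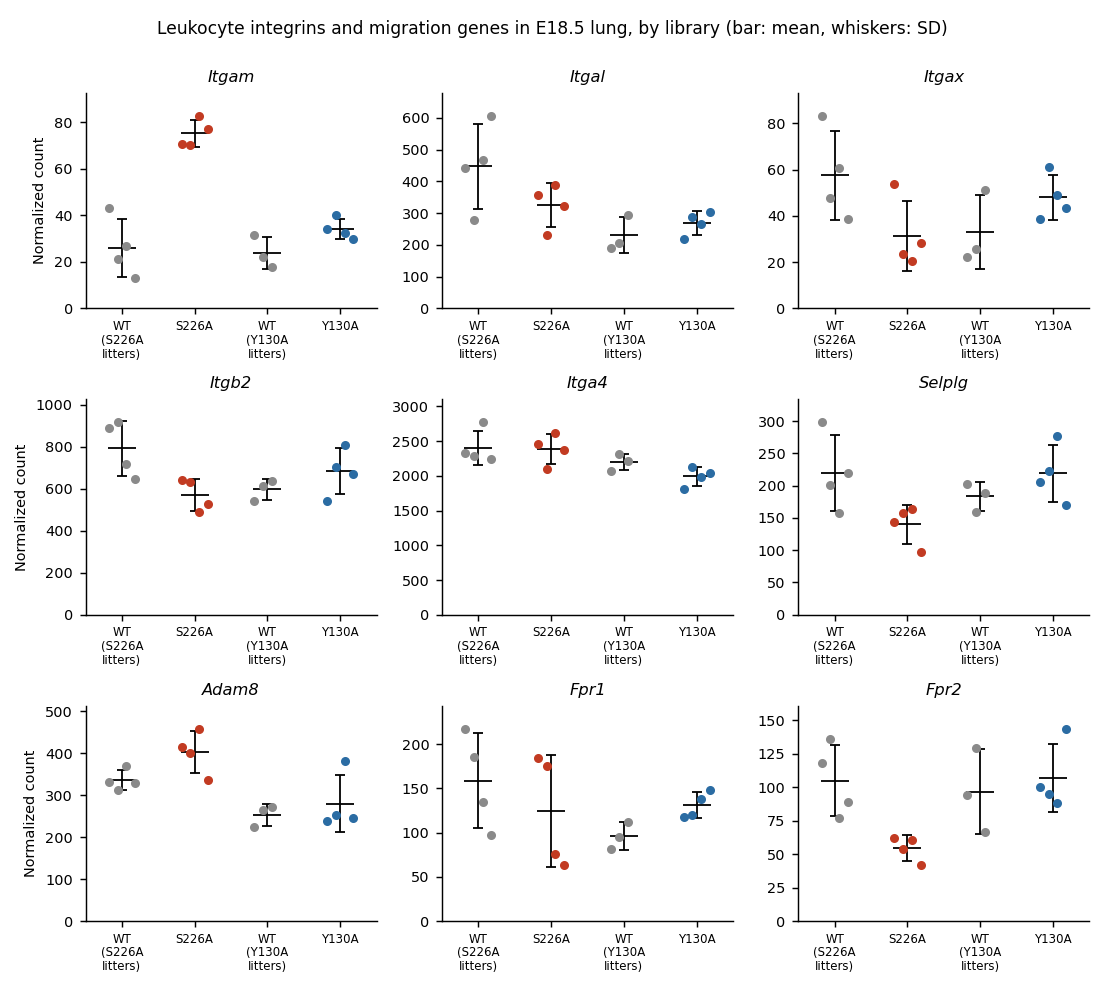
Each panel shows 1 gene in E18.5 lung, with normalized counts on a vertical axis that starts at 0, a point for each library, and the mean with the SD. Itgam is higher in the 4 S226A lungs (70.2 to 82.6) than in the 11 other lungs, whereas Itgb2 and Fpr2 are lower in the S226A lungs than in their wild-type littermates.

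Marker genes of leukocytes in the lung did not move as 1 group. Of the neutrophil markers 7 of 10 rose in S226A lung (summed normalized count 2223 to 3569 in wild-type and 5381 to 7045 in S226A), and of the granulocyte precursor markers 1 of 6 rose. Of the pan-leukocyte markers 2 of 4 fell (2671 to 3797 against 1999 to 2401), and of the macrophage markers 1 rose and 2 of 11 fell (5844 to 6907 against 5010.5 to 5344). Ptprc did not pass the test (1029 ± 269 against 863 ± 138, log2 -0.25, adjusted p = 0.40). Their part in the result was not tested.

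The alpha subunits were set against Itgb2 in each library as the log2 ratio of normalized counts, with 18 two-sided exact permutation tests. In wild-type liver Itgam was at 15.3% to 17.6% of Itgb2 and in S226A liver at 13.8% to 17.9%, and these ranges overlap (difference of the log2 ratio -0.03, exact p = 0.86). In lung the ratio was 2.01% to 4.84% in wild-type and 11% to 16.9% in S226A. The difference of the log2 ratio in lung was 2.08 (exact p = 0.029, the smallest that 4 against 4 allows; 0.17 after Benjamini-Hochberg adjustment), and the libraries did not overlap. Leaving out 1 library kept it between 1.90 and 2.30. These permutations do not keep littermates together. Flipping the sign of the differences within the 4 litters gave an exact p of 0.125 for this ratio and for that of Itgal in S226A liver and brain, the smallest that 4 litters allow.

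Itgal was higher in S226A liver by less than Itgb2, 1.25-fold (not past the test) against 2.23-fold. Its ratio was 66.4% to 84.6% of Itgb2 in the wild-type livers and 39.0% to 46.1% in the S226A livers, without overlap (difference of the log2 ratio -0.83, exact p = 0.029, adjusted 0.17). The wild-type livers of the Y130A litters were at 45.5% to 57.6%, below those of the S226A litters. In brain the ratio of Itgal was higher in S226A (difference of the log2 ratio 1.30, exact p = 0.029, adjusted 0.17), on at most 28 reads of either gene per library. In the 9 ratios of the Y130A embryos the libraries overlapped with their wild-type littermates, and exact p was at least 0.2.

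**Figure D4:**
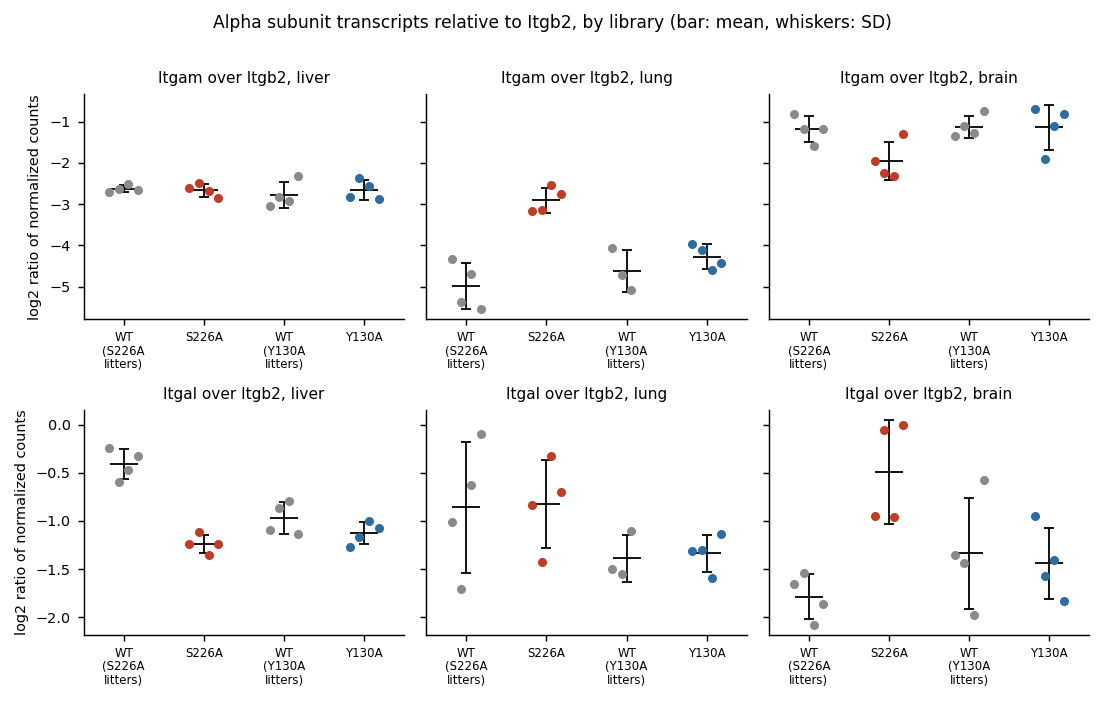
Each point is 1 library, and the vertical axis gives the log2 ratio of normalized counts (each plus 1) of Itgam to Itgb2 (upper row) or of Itgal to Itgb2 (lower row), with the mean and the SD. For Itgam the S226A lungs reach the ratio of the livers, with a mean log2 ratio of -2.90 against -2.66 in S226A liver and -4.98 in wild-type lung, and for Itgal the S226A livers lie below their wild-type littermates.

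In S226A brain 0 of the 9 genes were called by edgeR, where 0.243% of all genes were. An unadjusted p below 0.05 was found for 4 of the 9, and for 383 of all 16892 genes. DESeq2 called 1, Itgal. Itgal had 9.94, 7.38, 4.16 and 4.38 normalized counts in the wild-type brains and 13.4, 30.0, 17.3 and 13.4 in the S226A brains. The groups did not overlap, on 4 to 26 reads per library (log2 1.53, SE 0.41, adjusted p = 0.15 by edgeR and 0.034 by DESeq2). Itgam had 18.6, 9.84, 6.24 and 7.66 in wild-type and 6.20, 5.77, 6.18 and 4.88 in S226A. Its values also did not overlap, but the nearest libraries were 6.24 and 6.20 (log2 -0.84, SE 0.37, adjusted p = 1). Selplg was lower in 4 of 4 litters (21.9 ± 6.14 and 10.4 ± 4.44, log2 -1.03, SE 0.30, adjusted p = 0.32). Fpr2 had 0 to 3 reads in the wild-type and 2 to 5 in the S226A brains (log2 1.37, SE 0.59, unadjusted p = 0.028, adjusted p = 1), and the groups overlap.

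Itga4 and Adam8 were the most abundant of the 9 genes in brain, at 379 ± 58.8 and 158 ± 18 normalized counts in wild-type and 428 ± 77.3 and 170.2 ± 33.7 in S226A brain. Neither passed the test (adjusted p = 1 for each). Of the microglia markers 3 of 5 fell in S226A brain (summed normalized count 1618 to 1863 against 998 to 1081), and of the macrophage markers 4 of 11 fell and 1 rose (2099 to 2238 against 1091 to 1325). Of the neutrophil markers 2 of 10 rose (70.7 to 150.3 against 190.3 to 458). Their part in the brain values was not tested.

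In the Y130A embryos 0 of the 9 genes were called in any tissue by edgeR or DESeq2. The share of all genes called was 0.272% in liver, 0.0178% in lung and 0.00592% in brain. In these tissues 0, 1 and 1 of the 9 genes had an unadjusted p below 0.05, as 1558, 493 and 375 of all 16892 genes did. In Y130A liver Itgb2 had 2695, 2866, 2865 and 2734 normalized counts and its wild-type littermates 2948, 2499, 3024 and 2504. These overlap, and the log2 fold change was 0.02 (SE 0.12). Itgam in liver was 401 ± 71.1 in wild-type and 447 ± 87.6 in Y130A (log2 0.16, SE 0.20). Adam8, Selplg and Fpr2 had log2 fold changes of 0.03 (SE 0.17), -0.21 (SE 0.17) and 0.10 (SE 0.23) in Y130A liver.

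In Y130A lung Itgam had 34.0, 40.0, 32.4 and 29.9 normalized counts, and the 3 wild-type lungs had 31.5, 22.3 and 17.8. It was higher in 3 of 3 litters, with overlap (log2 0.52, SE 0.25, unadjusted p = 0.048, adjusted p = 1). Fpr1 in lung did not overlap between Y130A (118 to 148) and wild-type (81.3 to 112), with log2 0.44 (SE 0.38, adjusted p = 1). In Y130A brain Selplg was lower in 4 of 4 litters, 26.6 ± 4.06 against 38.1 ± 6.58 (log2 -0.52, SE 0.21, unadjusted p = 0.017, adjusted p = 1).

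The changes in both mutants were then compared directly. In liver the difference between S226A and Y130A passed the test for 5 of 9 genes, where 5.9% of all genes passed. These were Itgb2 (log2 difference 1.14, SE 0.17, adjusted p = 1.4e-05), Adam8 (1.16, SE 0.24, adjusted p = 0.0013), Selplg (1.06, SE 0.25, adjusted p = 0.0052), Fpr2 (1.35, SE 0.33, adjusted p = 0.0088) and Itgam (0.98, SE 0.29, adjusted p = 0.031). Itgam lost this call with litter as a block (adjusted p = 0.056), without the livers that hold squamous transcripts (0.078) and in 7 of 16 fits without 1 library. In lung and brain 0 of the 9 genes differed between the mutants by edgeR, where 0.308% and 0.0829% of all genes did. An unadjusted p below 0.05 was found for 5 and 3 of the 9, and for 1655 and 386 of all 16892 genes. DESeq2 called 2 in lung, Itgb2 and Selplg, and 0 in brain. In lung the differences of Itgam (1.00, SE 0.36) and Itgb2 (-0.67, SE 0.18) had adjusted p-values of 0.30 and 0.11. Mutation, litter set and sequencing depth cannot be told apart in these comparisons.

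The S226A change was also compared between tissues, of which most libraries come from the same embryos. Between liver and lung, 4 of 9 genes differed, where 6.9% of all genes did. The change was higher in liver by a log2 difference of 2.39 for Fpr2 (SE 0.35, adjusted p = 5.85e-06), 1.63 for Itgb2 (SE 0.17, adjusted p = 1.18e-08), 1.5 for Selplg (SE 0.26, adjusted p = 8.52e-05) and 0.92 for Adam8 (SE 0.24, adjusted p = 0.012). With litter as a block Itgal passed as well (adjusted p = 0.019, against 0.060 without the block), and also without wild-type lung replicate 2 or S226A lung replicate 3. The change of Itgam did not differ past the threshold between liver and lung (-0.38, SE 0.32, adjusted p = 0.54). Between liver and brain 4 of 9 differed, where 3.71% of all genes did, with Itgam (1.97, SE 0.43, adjusted p = 0.003), Selplg (1.88, SE 0.35, adjusted p = 0.00034), Adam8 (1.08, SE 0.25, adjusted p = 0.0049) and Itgb2 (1.01, SE 0.26, adjusted p = 0.016). Itgb2 lost this call in 2 of 16 fits without 1 library, those without wild-type brain replicate 1 or S226A brain replicate 4 (adjusted p up to 0.11). Between lung and brain only Itgam differed (2.35, SE 0.45, adjusted p = 0.012), where 0.124% of all genes did, and with litter as a block its adjusted p was 0.064.

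**Figure D5:**
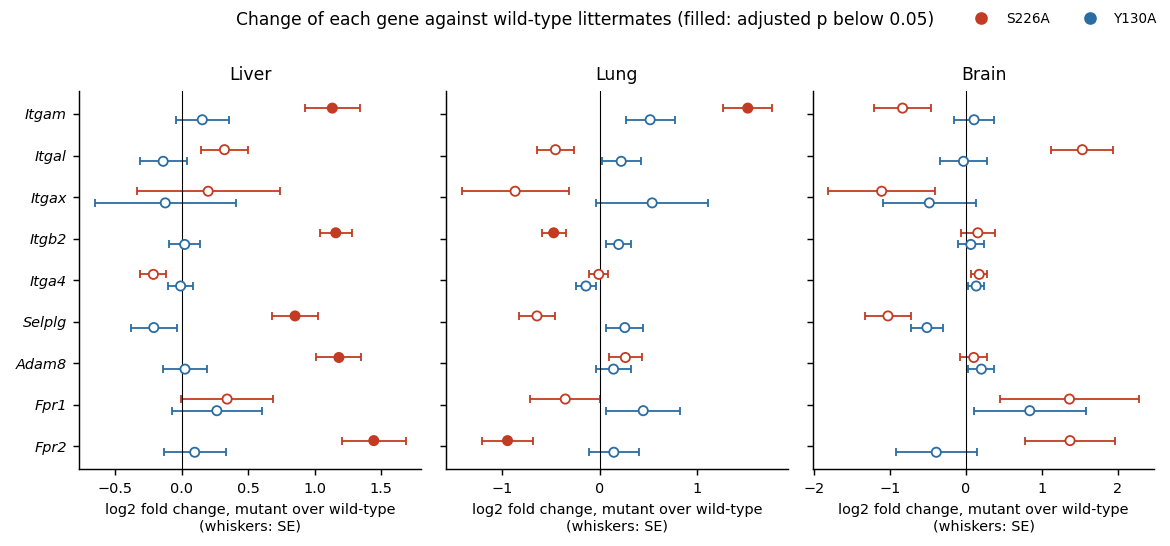
Points give the log2 fold change of each of the 9 genes against wild-type littermates in liver, lung and brain, for S226A (red) and Y130A (blue), with whiskers for the SE and filled points for an adjusted p below 0.05. In liver 5 S226A points are filled, all to the right of 0. In lung Itgam is filled to the right, Itgb2 and Fpr2 are filled to the left, and no Y130A point is filled.

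Other genes of the adhesion cascade were counted by lists of related genes. The shares of all genes to set beside these counts are 6.14% higher and 5.54% lower in S226A liver, 0.852% and 1.02% in S226A lung, and 0.243% in either direction in S226A brain. In S226A liver, 12 of 12 genes of leukocyte motility rose (median log2 fold change 0.72), among them Coro1a (log2 1.18, SE 0.09, adjusted p = 5.49e-13) and Lcp1 (0.84, SE 0.08, adjusted p = 9.46e-11), which bind actin, Myo1f (1.34, SE 0.13, adjusted p = 2.57e-10), a myosin of myeloid cells, and Arhgdib (1.13, SE 0.12, adjusted p = 2.23e-09). In S226A lung 3 of these 12 fell and 0 rose (median -0.23), with Nckap1l at -0.64 (SE 0.10, adjusted p = 0.00019), Coro1a at -0.56 (SE 0.09, adjusted p = 0.00021) and Myo1f at -0.57 (SE 0.13, adjusted p = 0.013). In S226A brain 2 of 12 fell and 0 rose, Nckap1l (-0.67, SE 0.12) and Dock2 (-0.86, SE 0.16). Coro1a and Myo1f thus changed in opposite directions in liver and lung, as Itgb2 and Fpr2 did. Coro1a is also 1 of the pan-leukocyte markers, and 4 of 4 of those rose in S226A liver (9652 to 9946 against 16554 to 18691 summed normalized counts).

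Among 12 selectins, ligands and enzymes that modify them, 4 rose and 0 fell in S226A liver. Among these, Cd44, a receptor of hyaluronan, rose by log2 0.54 (SE 0.10), Spn by 0.65 (SE 0.18) and Cd34 by 0.44 (SE 0.13). Of 17 genes of integrin activation 5 rose and 0 fell in S226A liver, with Fgr, a Src kinase of myeloid cells, at log2 1.30 (SE 0.20, adjusted p = 4.72e-06), and Vav1 (0.73, SE 0.14), Rassf5 (0.72, SE 0.14) and Vav3 (0.47, SE 0.10). In S226A lung 1 of 17 fell, Fermt3, which binds the tail of beta integrins (-0.57, SE 0.12, adjusted p = 0.0085). In S226A brain 1 of 17 fell, Vav1 (-1.06, SE 0.20, adjusted p = 0.0041).

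Of the other 21 integrin subunits 0 rose and 2 fell in S226A liver, near the share of all genes. These were Itga9 (log2 -0.60, SE 0.10, adjusted p = 2.14e-05) and Itgad, a further alpha partner of Itgb2 (29.5 ± 22 against 0.683 ± 1.37 normalized counts, adjusted p = 0.0073). In S226A lung 1 of 21 fell, Itgb5 (-0.27, SE 0.08, adjusted p = 0.046). Of 12 ligands and junction genes of the vessel wall in the table, 2 rose and 5 fell in S226A liver. Vcam1, the ligand of Itga4, fell from 8340.3 ± 466 to 5185 ± 841 (log2 -0.69, SE 0.09, adjusted p = 8.05e-07), and Jam3 (-1.03, SE 0.20) and Cdh5 (-0.46, SE 0.12) fell as well, while Icam2, a ligand of LFA-1, rose (0.57, SE 0.16, adjusted p = 0.015). Cdh5 is also 1 of the 4 endothelial markers, of which 2 fell in S226A liver (Cdh5 and Pecam1), with a summed normalized count of 10336 to 11551 in wild-type and 7642 to 9414 in S226A. Of the macrophage markers 10 of 11 fell in the same livers. The part of either marker list in these counts was not tested, and bulk RNA does not tell which cells made Vcam1 or the other genes. In S226A lung 0 of these 12 were called.

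Of 9 tested chemoattractant receptors and annexin genes, 4 rose and 1 fell in S226A liver. Anxa1, whose product annexin A1 is a ligand of Fpr2, rose from 5019.7 ± 727 to 10779 ± 541 normalized counts (log2 1.10, SE 0.15, adjusted p = 4.96e-07). C5ar1 (1.21, SE 0.24) and Ltb4r1 (0.99, SE 0.28) rose, and Cmklr1 fell (-1.07, SE 0.19, adjusted p = 7.12e-05). In S226A lung 1 of 9 fell, C5ar2 (-1.58, SE 0.43, adjusted p = 0.044). Of 10 sheddases and membrane proteases other than Adam8, 4 rose and 2 fell in S226A liver. Mmp9 (1.28, SE 0.17) and Mmp8 (1.20, SE 0.18), proteases of neutrophil granules, rose there (Mmp8 is also 1 of the neutrophil markers) and also in S226A lung (1.58, SE 0.21, and 1.73, SE 0.21), where they were the only 2 of 10. Adam10 fell in liver (-0.27, SE 0.06, adjusted p = 0.0015). In the Y130A embryos 0 genes of these 7 lists were called by edgeR in any tissue. The shares of all genes called there were also low, 0.272% in liver, 0.0178% in lung and 0.00592% in brain.

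Likeness between genes was described by Pearson's r of log2(normalized count + 1) over the 16 livers, which share the contrast of S226A with the other genotypes. These livers also come from both sets of litters, between which 13.1% of all genes differed in wild-type liver. Among the genes most like Itgb2 were Syne1 (r = 0.985) and Lcp1 (0.985), and Itgam was most like Plcb2 (0.943), Rab27a (0.942) and Myo1f (0.939). Adam8 was most like Syne1 (0.970), Mcemp1 (0.967) and Mmp9 (0.963), Fpr2 like Arhgap4 (0.952), Cxcr2 (0.949) and Arhgap45 (0.941), and Selplg like Apobr (0.935), Myh9 (0.925) and Hcls1 (0.923). Itgal was most like Diaph1 (0.975), Cbl (0.968) and Coro7 (0.965), and Itga4 like Diaph3 (0.944), Slc29a1 (0.931) and Atp8a1 (0.930).

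Itgax and Fpr1 had no partner as close, with r of 0.792 at most for Itgax (Ccdc86, followed by Tas1r1 at 0.789 and Tnni2 at 0.785) and 0.866 for Fpr1 (9430069I07Rik, followed by Dhx29 at 0.854 and Ranbp9 at 0.835). Among the 9 genes themselves, r over the 16 livers was 0.950 between Itgb2 and Adam8, 0.937 between Itgb2 and Fpr2, 0.915 between Itgb2 and Itgam and 0.900 between Itgb2 and Selplg. It was 0.672 between Itgb2 and Itgal and 0.263 between Itgb2 and Itgax. Itga4 had a negative r with each of the other 8 genes over the 16 livers, from -0.672 with Adam8 to -0.107 with Itgax. Over all 47 libraries, which span the tissues, its r with these 8 was positive, from 0.823 with Itgax to 0.976 with Itgal. Of the partners named above, r over the 47 libraries was negative for Tas1r1 with Itgax (-0.554), Dhx29 with Fpr1 (-0.867) and Atp8a1 with Itga4 (-0.206). It was positive for the others.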

How the data were processed

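RNA-seq reads of E18.5 liver, lung and brain were counted per gene by the authors, and these counts were deposited as whole numbers without normalization. Per the study's methods and processing notes, reads were aligned to GRCm38.p6 with STAR 2.6.0b, which also counted them on GENCODE M19 genes. Whether counting used strand is not given in the sources used here. Positions and exon overlaps are from GENCODE M21 on the same build. The authors removed 1 wild-type lung, and it was not analysed here. The table holds 0 columns of no sample.

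Counts were tested with edgeR 4.0.16 (R 4.3.3) quasi-likelihood fits of 12 group means to the 47 libraries, after TMM normalization and filterByExpr (counts of at least 10 and a total of at least 15), with Benjamini-Hochberg adjustment over 16892 genes and a call at an adjusted p below 0.05. The SE of a log2 fold change was taken from its F statistic. Ratios used a pseudocount of 1 and two-sided exact permutation tests. The scripts were tested on simulated counts. Statistics and figures used Python 3.11.15, scipy 1.17.1 and matplotlib 3.10.9. Alternatives were DESeq2 1.42.0, RLE size factors, no filter, litter as replicate block, a fit of only the libraries compared, the study's stringent criteria (adjusted p below 0.01, log2 fold change beyond 1, SE below 1), leaving out each library, leaving out livers with squamous transcripts, a pseudocount of 0.1 and no TMM.

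Litters, named in the sample titles, pair the embryos: residuals correlated above 0.1 in 18 of 23 pairs of littermates (median r 0.27) and in 15 of 69 pairs of other embryos (median r -0.07). Named genes are the 9 genes in every comparison, Ptprc, up to 4 called genes per list by lowest adjusted p together with the largest change, the 3 genes most like each of the 9, and up to 3 genes of a marker list. The genes and lists were chosen with earlier results of these data known. Replicates are separate embryos. Promoter sequences are RefSeq's. Some results that these rules select are not reported here.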

Additional observations from a re-analysis of the deposited data

Results flagged for a closer look

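Of 99 sets of 4 libraries (each 1 gene in 1 group) examined for a library that stands apart, 3 had one, where chance flags about 1 in 20. In wild-type brains of the Y130A litters, replicate 1 had 28.4 normalized counts of Selplg and the nearest of the others 39.6. In Y130A lungs, replicate 3 had 380.5 normalized counts of Adam8 and the nearest of the others 253. In wild-type brains of the S226A litters, replicate 1 had 7.45 normalized counts of Fpr1 and the others 0.

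The change against wild-type littermates differed between S226A and Y130A liver, by edgeR's quasi-likelihood test of the difference itself, for Selplg by 1.06 on the log2 scale, Itgam 0.98, Adam8 1.16, Itgb2 1.14 and Fpr2 1.35. The S226A change differed between liver and lung for Selplg by 1.5, Adam8 0.92, Itgb2 1.63 and Fpr2 2.39. It differed between liver and brain for Selplg by 1.88, Itgam 1.97, Adam8 1.08 and Itgb2 1.01, and between lung and brain for Itgam by 2.35.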

How the results depend on the processing

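The count of 5 genes called in S226A liver stayed at 5 in every fit without 1 library and was 4 under the stringent criteria (without Selplg). In S226A lung the main count of 3 was 1 under the stringent criteria (Itgam), 0 with only the libraries compared, 2 with the replicate block or no filter (without Fpr2) and 4 with DESeq2 (with Selplg). In S226A brain DESeq2 called 1 gene (Itgal) where edgeR called 0. For the difference between the mutants in lung, edgeR called 0, the fit with litter as a replicate block 1 (Itgb2) and DESeq2 2 (Itgb2, Selplg). For the S226A change between lung and brain, edgeR called 1, DESeq2 2 (Itgal, Itgam), and the stringent criteria, the replicate block and only the libraries compared each 0. Between the wild-type lungs 2 genes were called and 0 with only the libraries compared, and between the wild-type brains 1 and 0 with RLE size factors or only the libraries compared. Leaving out 1 library gave 1 to 4 genes in S226A lung (1 without wild-type replicate 1 or S226A replicate 4), 0 to 1 between the mutants in lung, 1 to 2 between lung and brain, 3 to 4 between liver and brain, 4 to 5 between liver and lung, 1 to 2 between the wild-type lungs and 0 to 1 between the wild-type brains. The shares of all genes called under these alternatives are not given here, and the cause of these shifts was not tested. No called value reversed its sign, whereas 28 values that were not called, Itgax in S226A liver among them, had another sign in at least 1 alternative. With the replicate block, the adjusted p of Fpr2 in S226A lung was 0.0504, and the block ended no other call of a mutant against its littermates. Itgal passed under the block between S226A liver and lung (adjusted p = 0.019). In brain, Fpr1, Fpr2, Itgal and Itgam rest on few reads per library.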
